A study of Mus musculus with 6 samples.

Results

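The genes described here make and load MHC class I molecules. They are the rows with the symbols H2-K1, H2-D1, B2m, Tap1, Tap2, Tapbp, Psmb8, Psmb9, Psmb10 and Nlrc5, 10 of the 27502 genes listed in each sample's table. They were taken by symbol, as a set proposed with earlier results of these data known. RNA came from vascular smooth muscle cells (VSMCs), the contractile cells of the vessel wall, cultured from mouse aorta. In 3 samples Ezh2 was knocked down with a short interfering RNA (siEzh2) and 3 samples were controls, all taken at 48 hours. The sources used here give neither the siRNA sequence, nor the treatment of the control cells, nor the strain and age of the mice. Nothing in the labels ties the samples to separate cultures or animals. P-values here therefore rest on the spread among these 6 samples alone, and that spread may be a technical one.

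MHC class I molecules sit on the surface of nearly all nucleated cells and show fragments of the cell's own proteins to CD8 T cells. Proteins are cut by the proteasome, in which Psmb8, Psmb9 and Psmb10 can replace the constitutive catalytic subunits to give the immunoproteasome. The peptides are carried into the endoplasmic reticulum by the Tap1-Tap2 transporter and loaded, with the help of tapasin (Tapbp), onto a heavy chain (H2-K1, H2-D1) paired with B2m. Nlrc5 is a coactivator of class I genes and acts through factors bound at their promoters, and interferons raise the whole set. Ezh2, the target of the knockdown, is the catalytic subunit of a Polycomb complex that silences genes by methylating histone H3 at lysine 27.

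The deposited values were FPKM (fragments scaled by transcript length and by library size), a level per length, so genes can be compared with each other. Steps in the low values gave back whole reads, with 16080005 to 18753124 reads per sample. Ezh2 itself was 3.41, 3.59 and 3.88 FPKM in the controls and 1.20, 1.09 and 1.05 FPKM in siEzh2, which is 3.26 times lower (limma adjusted p = 5.15e-05). Of the smooth muscle markers, Acta2 (699 ± 14.8 FPKM in controls, SD, n = 3) and Myl9 (154 ± 2.43 FPKM) were abundant. Lmod1 (16.8 FPKM) and Smtn (13.4 FPKM) were lower. Myh11 (1.83 ± 0.149 FPKM) and Cnn1 (1.14 ± 0.203 FPKM), which mark the contractile state, were low, as was Myocd (1.57 FPKM). Des (0.752 FPKM) and Tagln (0.253 FPKM, on 28 reads over the controls) were lowest. Exons of genes on the other strand overlap 67.9% of the Tagln exon bases. Of the 7 tested markers of this list, 6 fell in siEzh2. Of the macrophage and leukocyte markers, Lyz2 (7.98 FPKM), Cd68 (5.77 FPKM), Cd14 (2.72 FPKM) and Csf1r (2.01 FPKM) were detected in the controls on average, while Ptprc and Itgam were at or below 0.034 FPKM in every sample.

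Of the 10 genes, 8 were higher in siEzh2, 0 were lower, Tap2 was not called, and Psmb9 was below the filter for testing. "Higher" and "lower" mean an adjusted p under 0.05 in limma on log2(FPKM + 1), fitted over the 11869 genes whose mean reached 1 FPKM in either group. In the same fit 24.1% of all tested genes were higher and 22.7% were lower, so a change in either direction was common (46.9%). Psmb8 and Nlrc5 passed the filter only through siEzh2 and had to differ. Among the 7 genes with at least 1 FPKM in both groups, 6 were higher and 1 was not called. The median log2 fold change was 0.39 for these 7 and 0.01 for all tested genes. The values of siEzh2 lay above those of the controls without overlap in 9 of the 10 genes, the untested Psmb9 included. This held for 8 of the 9 tested genes and 6 of the 7 with at least 1 FPKM in both groups. Of all tested genes 30.0% did not overlap in this direction and 58.1% in either. In bulk RNA, more cells with a transcript and more of it per cell cannot be told apart.

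**Figure D1:**
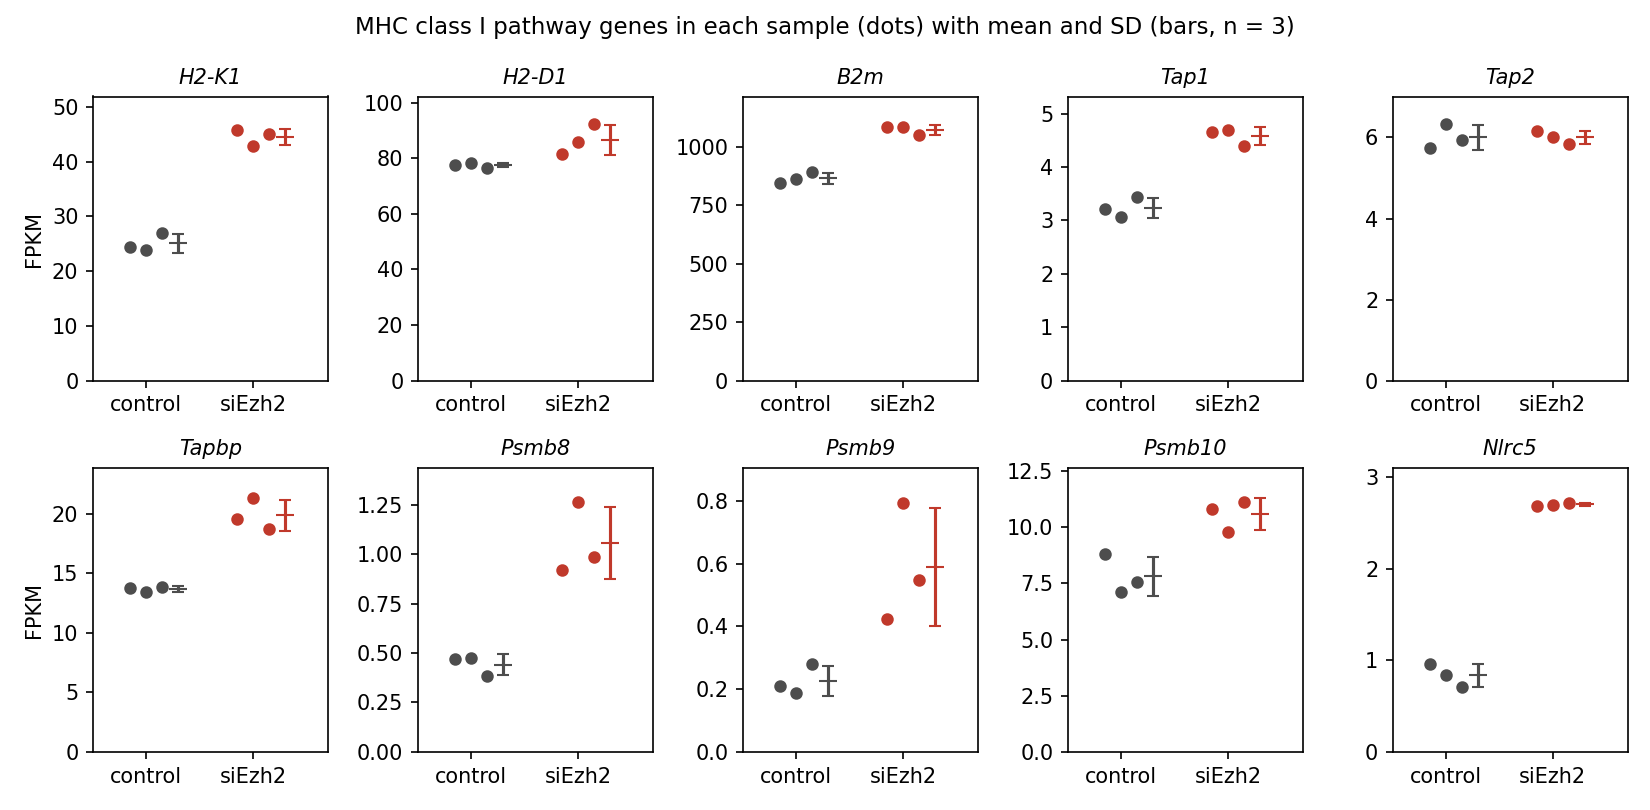
FPKM of each of the 10 genes in the 3 control and 3 siEzh2 samples (points), with the mean and SD beside them (n = 3), each panel with its own linear axis from 0. All panels but that of Tap2 show the siEzh2 points above the control points, from B2m near 1073 FPKM down to Psmb9 near 0.589 FPKM in siEzh2.

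Nlrc5, the class I coactivator, changed most of the 10 genes. It stood at 0.960, 0.841 and 0.704 FPKM in the controls and at 2.69, 2.70 and 2.72 FPKM in siEzh2. Even the highest control was far below every siEzh2 sample, and the siEzh2 samples were nearly equal. The mean was 3.24 times higher, with a log2 fold change of 1.01 ± 0.0556 (SE) on log2(FPKM + 1) and a limma adjusted p of 9.25e-05. The added 1 in that scale shrinks changes of low genes: on recovered reads, 394 in controls and 1172 in siEzh2, limma-voom gave a log2 fold change of 1.68. On the main scale Nlrc5 ranked 91 from the top among the 11869 tested genes. It passed the filter only through siEzh2, so a difference was built into this rank and the adjusted p. The gene lies at chr8:94434356-94527272 on the plus strand (mm10, GENCODE M21).

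The classical heavy chains H2-K1 and H2-D1, which present the peptide, changed to different extents. H2-K1 (chr17:33996017-34000347, minus strand) was 24.4, 23.9 and 27.0 FPKM in the controls and 45.8, 42.8 and 45.0 FPKM in siEzh2. The groups were far apart, with a mean 1.78 times higher and a log2 fold change of 0.81 ± 0.0566 (limma adjusted p = 0.000175). H2-D1 (chr17:35262730-35267499, plus strand) was 77.6, 78.4 and 76.6 FPKM in the controls and 81.6, 85.8 and 92.1 FPKM in siEzh2. Its groups did not overlap either, but the mean was only 1.12 times higher (log2 fold change 0.15 ± 0.0506, limma adjusted p = 0.0469). The H2-D1 call was marginal: leaving out any control, or siEzh2 sample 2 or 3, ended it (adjusted p from 0.0921 to 0.120), as did a pseudocount of 0.1 (0.0573), quantile normalization (0.0655) and testing with no filter (0.0904). Limma-voom on reads gave an adjusted p of 0.0022.

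The ratio of H2-K1 to H2-D1 was 0.314, 0.305 and 0.352 in the controls and 0.561, 0.499 and 0.488 in siEzh2. It was 0.324 ± 0.0253 in controls and 0.516 ± 0.0394 in siEzh2, without overlap, with an exact two-sided permutation p of 0.1, the smallest that 3 against 3 samples allow (0.133 after adjustment over 4 ratios). The 95% intervals of the log2 fold changes were 0.67 to 0.94 for H2-K1 and 0.03 to 0.28 for H2-D1. Class I heavy chains are close copies, between which reads could be split. Of all 50-base words in the exons of H2-K1, 9.63% also occur in another gene, and the share is 12.8% for H2-D1. Reads summed over 12 class I heavy chain genes, which such splitting affects less, were 430.0, 430.3 and 427 CPM (read counts scaled to the same depth in every sample) in the controls and 503, 498 and 524 CPM in siEzh2. Any reads left out of the counts for matching several genes would be missing from that sum too. The summed reads were 1.19 times higher (exact two-sided permutation p = 0.1, n = 3). H2-K1 supplied 17.2% of these reads in controls and 25.7% in siEzh2, while H2-D1 supplied 46.7% and 44.0%.

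The light chain B2m (chr2:122147686-122153083, plus strand), which every heavy chain here needs, was the most abundant of the 10 genes. It was 846, 861 and 892 FPKM in the controls and 1085, 1084 and 1049.9 FPKM in siEzh2, with no overlap. The mean was 1.24 times higher (log2 fold change 0.31 ± 0.0371, limma adjusted p = 0.00117). The ratio of B2m to the sum of H2-K1 and H2-D1 was 8.44 ± 0.158 in controls and 8.21 ± 0.475 in siEzh2, with overlapping values (exact permutation p = 0.7, n = 3). B2m thus lay about 8-fold above both heavy chains together, in FPKM, in each group. This multiple depends on the exon lengths in the scale, 860 bases for B2m, 2938 for H2-K1 and 2579 for H2-D1. In reads the controls held 41436 for B2m, 4096 for H2-K1 and 11120 for H2-D1.

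The promoter sequences of H2-K1, its nonclassical relative H2-Q4 and B2m are shown because H2-K1, H2-D1 and H2-Q4 share most of their sequence before the start while their RNA changed to different extents. RefSeq (GRCm38.p6) windows of 250 bases before to 50 after the start were at hand for 8 of the 10 genes. Capitals mark matches, on either strand, to 5 motifs: kB-like (GGGA, any 4 bases, then CC), ISRE-like (AANTGAAA), ISRE (interferon-stimulated response element: GAAA, any 2 bases, then GAAA), X2-like (TGNTGAC) and CCAAT. The motifs were chosen after these sequences were seen. The ISRE-like and ISRE matches can overlap, as in B2m, and a match is a description of letters, not a shown binding site. The stretches begin 40 bases before the ISRE-like match and lie at chr17:34000348-34000477 (minus strand) for H2-K1, chr17:35379424-35379583 (plus) for H2-Q4 and chr2:122147510-122147669 (plus) for B2m. An exon of the antisense gene Gm11131 covers the stretch of H2-Q4 in GENCODE M21.
H2-K1: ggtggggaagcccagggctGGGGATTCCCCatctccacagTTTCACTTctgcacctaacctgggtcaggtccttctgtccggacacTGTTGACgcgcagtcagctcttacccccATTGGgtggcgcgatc
H2-Q4: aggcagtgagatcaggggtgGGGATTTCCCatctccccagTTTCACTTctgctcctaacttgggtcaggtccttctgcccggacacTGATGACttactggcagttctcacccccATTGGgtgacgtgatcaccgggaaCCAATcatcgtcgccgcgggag
B2m: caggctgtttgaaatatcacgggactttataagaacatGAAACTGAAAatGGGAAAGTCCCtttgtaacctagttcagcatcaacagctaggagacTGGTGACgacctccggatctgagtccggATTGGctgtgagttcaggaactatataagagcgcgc

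Stretches of 160 bases placed in the same way were compared in pairs, except for H2-T23. Its stretch began 40 bases before its ISRE match, since its window held no ISRE-like match. The identities with H2-T23 thus compare stretches set on different motifs. H2-K1 and H2-D1 were identical at 143 of 161 aligned columns (88.8%). H2-K1 was identical to H2-Q4 at 82.0% and to H2-T23 at 52.1% of columns, close to the 51.9% it shared with B2m, which is no heavy chain. The windows of H2-K1, H2-D1, H2-Q4 and B2m each held the kB-like, ISRE-like, X2-like and CCAAT letters. So did the window of H2-T22, with ISRE letters as well, although H2-T22 was not called (24.9 ± 0.960 FPKM in controls and 26.4 ± 1.77 FPKM in siEzh2, limma adjusted p = 0.296). However, 53.5% of the 50-base words of H2-T22 exons also occur in other genes, so its level and change are uncertain. Exons on the other strand overlap 29.4% of its exon bases. H2-T23, which fell, held ISRE, X2-like and CCAAT letters and no kB-like or ISRE-like match. Of the 8 genes with a window, 3 held the kB-like, the ISRE-like and the X2-like letters (H2-K1, H2-D1 and B2m in each case), 1 held ISRE (B2m) and 6 held CCAAT. Over all 27025 mouse genes with a window the shares were 22.9% for kB-like, 7.54% for ISRE-like, 3.99% for ISRE, 16.0% for X2-like and 41.1% for CCAAT.

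The other genes of the heavy chain family did not move together. Of 9 tested, 2 were higher, 2 were lower and 5 were not called, with a median log2 fold change of 0.08. The count of higher genes ran from 0 with a filter of 5 FPKM to 4 in limma-voom with the filter on reads. H2-Q4 was 0.970, 1.46 and 1.35 FPKM in the controls and 3.47, 3.75 and 2.94 FPKM in siEzh2. This was a 2.69 times higher mean without overlap (log2 fold change 0.96, limma adjusted p = 0.000818), though 36.4% of its 50-base words occur in other genes. H2-T23, which encodes the nonclassical chain Qa-1, fell from 20.7, 21.6 and 20.1 FPKM to 15.1, 15.9 and 16.8 FPKM (log2 fold change -0.36, limma adjusted p = 0.00204). Fcgrt, the heavy chain of the neonatal Fc receptor, which pairs with B2m but presents no peptide, fell from 75.0 ± 1.55 to 56.0 ± 1.51 FPKM (log2 fold change -0.42, limma adjusted p = 0.000411). Both falls came without overlap between groups. Cd1d1, which presents lipids, was 0.881 ± 0.229 FPKM in controls and 1.34 ± 0.201 FPKM in siEzh2 with overlapping values (limma adjusted p = 0.0446), a call that its filter favoured, since it passed through siEzh2 only, and that ended when control sample 1 or 2, or siEzh2 sample 1 or 2, was left out (0.112 to 0.123).

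Tap1 and Tap2, which together form the peptide transporter, did not change alike. Tap1 (chr17:34187553-34197225, plus strand) was 3.21, 3.06 and 3.44 FPKM in the controls and 4.67, 4.70 and 4.40 FPKM in siEzh2. Its mean was 1.42 times higher without overlap (log2 fold change 0.40 ± 0.0467, 95% interval 0.29 to 0.51, limma adjusted p = 0.00106). Tap2 (chr17:34203527-34216321, plus strand) was 5.73, 6.34 and 5.94 FPKM in the controls and 6.17, 6.01 and 5.85 FPKM in siEzh2. The groups overlapped throughout, and the 95% interval of the log2 fold change ran from -0.11 to 0.11 (limma adjusted p = 0.987). Exons of genes on the other strand overlap 18.5% of the Tap2 exon bases and 3.87% of those of Tap1. Reads of such genes could be included, or reads on shared bases left out. Strand use in counting is not stated in the sources used here. The Tap1 to Tap2 ratio was 0.541 ± 0.0508 in controls and 0.763 ± 0.0164 in siEzh2, with no overlap (exact two-sided permutation p = 0.1, n = 3, 0.133 after adjustment over 4 ratios).

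Tapbp, which holds the empty heavy chain at the transporter, was 13.7, 13.4 and 13.8 FPKM in the controls and 19.5, 21.3 and 18.7 FPKM in siEzh2. The siEzh2 samples spread more than the controls, yet all lay above them. The mean was 1.45 times higher (log2 fold change 0.51 ± 0.0523, limma adjusted p = 0.000681). Tapbp lies at chr17:33915899-33929292 on the plus strand, and 24.9% of its exon bases overlap exons of genes on the other strand. The sources used here do not state whether counting used the strand, so reads of such partners could be included or shared reads left out.

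Of 14 further genes for loading and trimming peptides, 6 were higher, 3 were lower and 5 were not called, with a median log2 fold change of 0.05. The largest rises in this list were Blmh, a cytosolic aminopeptidase, at 1.76 times (log2 fold change 0.59, limma adjusted p = 0.000872) and Erap1, which trims peptides in the endoplasmic reticulum (0.45, 0.000187). Erap1 was 2.70, 2.66 and 2.57 FPKM in the controls and 3.95, 4.01 and 3.97 FPKM in siEzh2, with little spread in either group. Thop1, a peptidase that degrades peptides in the cytosol, was 1.30 times higher (0.32, 0.000718). Npepps, a further cytosolic aminopeptidase, fell from 25.6 ± 0.516 to 19.9 ± 1.14 FPKM (-0.35, 0.00198). With 1 sample left out the count of lower genes in this list was 2, and 1 without control sample 3, while limma-voom on recovered reads gave 6 higher and 6 lower.

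**Figure D2:**
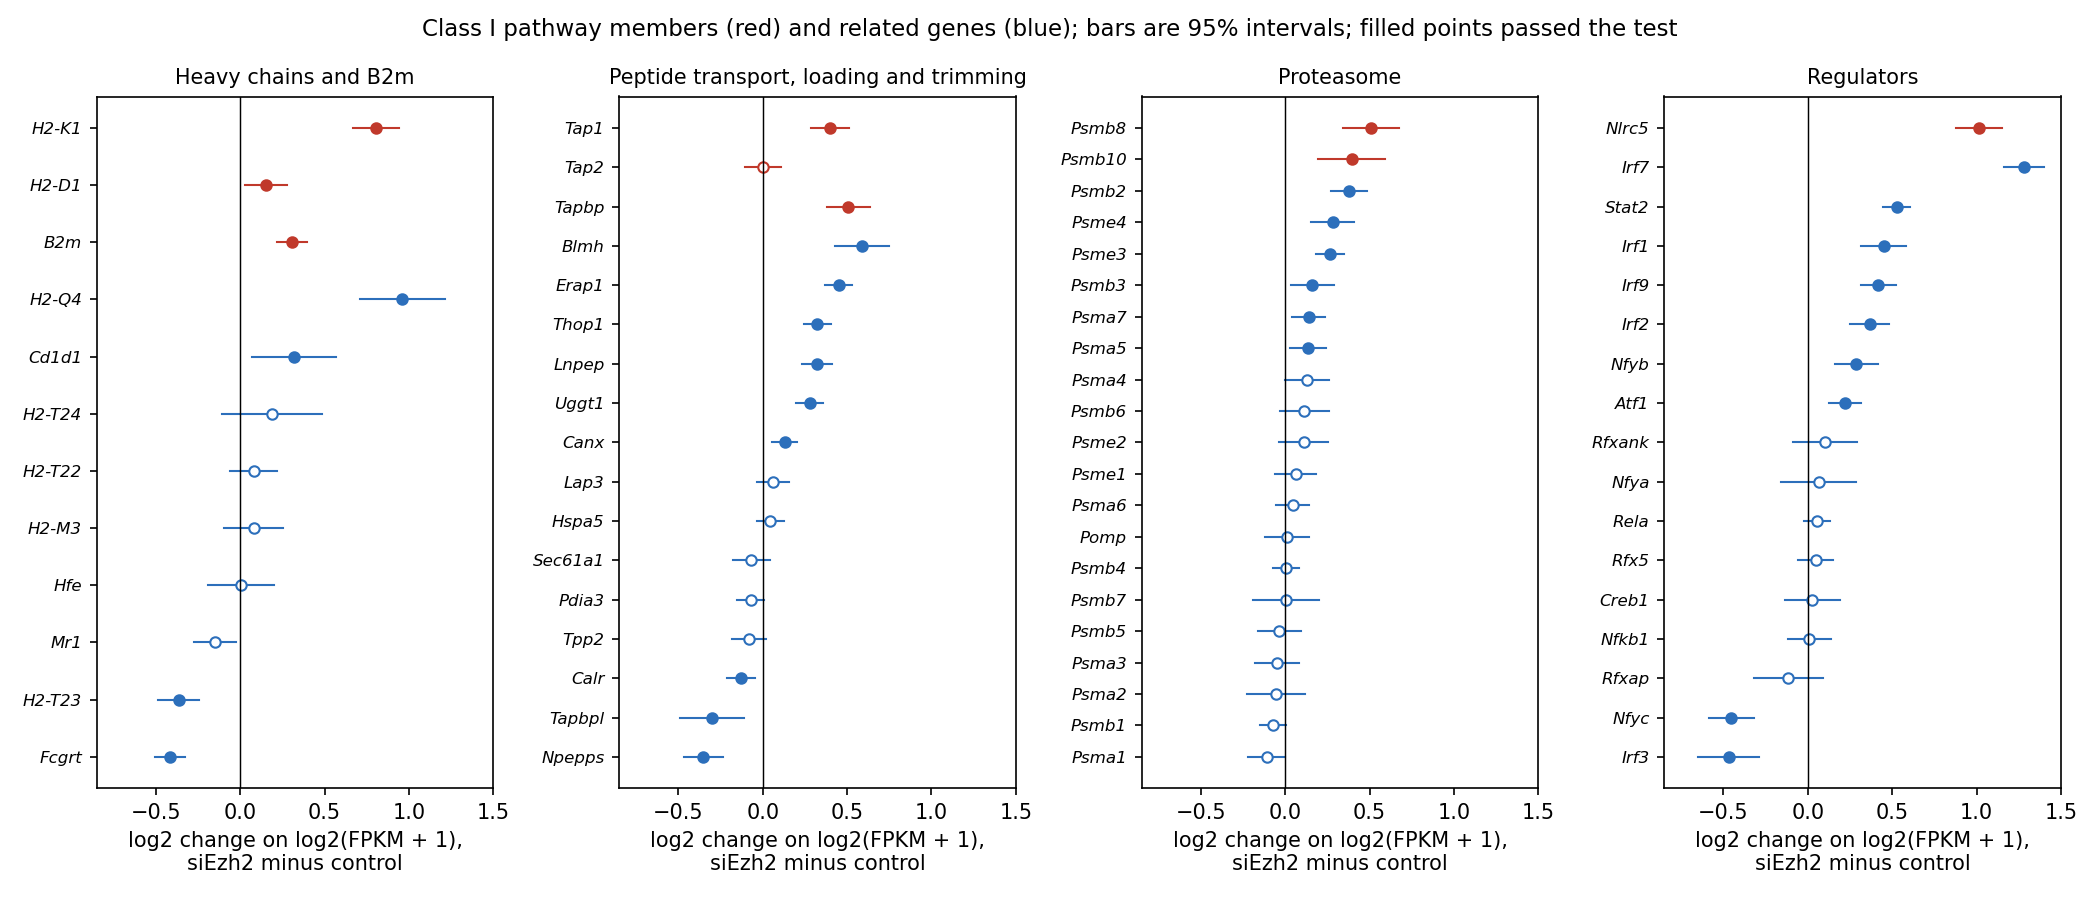
Log2 fold change (siEzh2 minus control, on log2(FPKM + 1)) of the tested genes of each list, with 95% intervals as bars, filled points for genes past an adjusted p of 0.05 in limma and open points for the rest, in 4 panels by role, with 1 tested regulator not drawn. The tested genes of the 10 (red) lie to the right of 0 apart from Tap2, while the lists of other heavy chains and of loading cofactors spread to both sides.

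The 3 inducible proteasome subunits each had a higher mean in siEzh2, but Psmb8 and Psmb9 were scarce. Psmb8 (chr17:34197721-34201454, plus strand), which replaces Psmb5, was 0.470, 0.473 and 0.382 FPKM in the controls and 0.919, 1.26 and 0.986 FPKM in siEzh2. The mean was 2.39 times higher without overlap, on 83 reads in all controls and 183 in siEzh2. Exons on the other strand overlap 14.7% of the Psmb8 exon bases, so reads from there could be included or left out. On the main scale the log2 fold change was 0.51 ± 0.0693 (limma adjusted p = 0.00188) and limma-voom on reads gave 1.22. Psmb8 passed the filter only through siEzh2, so a difference was built into these tests. Without siEzh2 sample 2, the highest of the 6, Psmb8 fell below the filter and was not tested.

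Psmb9 (chr17:34181987-34187764, minus strand), which replaces Psmb6, was 0.209, 0.189 and 0.280 FPKM in the controls and 0.425, 0.793 and 0.549 FPKM in siEzh2. These values rest on 14, 13 and 19 reads in the controls and 25, 51 and 35 reads in siEzh2. The groups did not overlap, with a mean 2.61 times higher, but both group means were under 1 FPKM and the limma fit did not test it. A limma-voom fit on genes with at least 10 reads in at least 3 samples, chosen after seeing the data, gave a log2 fold change of 1.32 (adjusted p = 0.00122), where 21.9% of all genes were higher.

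Psmb10 (chr8:105935735-105938444, minus strand), which replaces Psmb7, was the only one of the 3 above 5 FPKM. It was 8.80, 7.12 and 7.55 FPKM in the controls and 10.8, 9.78 and 11.1 FPKM in siEzh2. The mean was 1.35 times higher without overlap (log2 fold change 0.39 ± 0.0821, limma adjusted p = 0.00948).

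The constitutive partners of these subunits were not called. Psmb5 was 34.0 ± 1.51 FPKM in controls and 33.2 ± 1.66 FPKM in siEzh2, Psmb6 48.4 ± 0.836 and 52.6 ± 4.12 FPKM, and Psmb7 21.3 ± 0.587 and 21.4 ± 2.54 FPKM. The ratio of Psmb8 to Psmb5 was 0.0130 ± 0.00197 in controls and 0.0317 ± 0.00465 in siEzh2. The ratio of Psmb9 to Psmb6 was 0.00468 ± 0.00103 in controls and 0.0114 ± 0.00421 in siEzh2. The ratio of Psmb10 to Psmb7 was 0.368 ± 0.0513 in controls and 0.497 ± 0.0533 in siEzh2. Each ratio separated the groups without overlap, and each had an exact two-sided permutation p of 0.1 (n = 3, 0.1 after adjustment over 3 ratios), the smallest this design allows. Even in siEzh2 the FPKM of Psmb8 and Psmb9 was thus a few per cent or less of that of their constitutive partners. That of Psmb10 was about 0.497 of Psmb7. These shares depend on the exon lengths in the scale, such as 3381 bases for Psmb8 and 899 for Psmb5, or 1705 for Psmb10 and 3421 for Psmb7. In reads siEzh2 held 183 for Psmb8 and 1528 for Psmb5, 111 for Psmb9 and 5011 for Psmb6, and 920 for Psmb10 and 3731 for Psmb7. Of the 50-base words of Psmb5 exons, 54.1% also occur in other genes, so its level is uncertain.

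**Figure D3:**
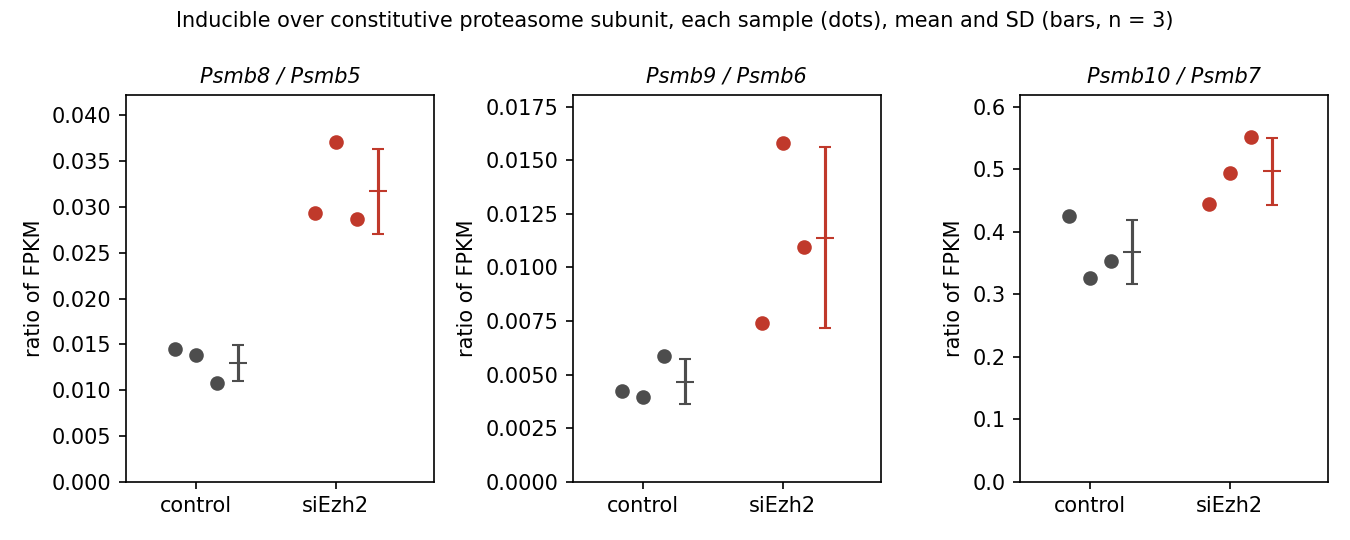
FPKM ratio of each inducible proteasome subunit to the constitutive subunit it replaces, in the 3 control and 3 siEzh2 samples (points), with the mean and SD beside them (n = 3) on linear axes from 0. In each panel the siEzh2 points lie above the control points, and the Psmb10 to Psmb7 ratio is the highest of the 3.

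In the constitutive proteasome core 4 of 15 genes were higher, 0 were lower and 11 were not called, with a median log2 fold change of 0.01. Psmb2 was the clearest, at 1.31 times (log2 fold change 0.38, limma adjusted p = 0.00102). The other 3, Psma5, Psma7 and Psmb3, were marginal: leaving out control sample 1, control sample 3, siEzh2 sample 2 or siEzh2 sample 3 ended all 3 calls (adjusted p 0.0581 to 0.132), which left 1 of 15. Limma-voom on recovered reads gave 3 higher and 2 lower. Of the proteasome activators, Psme3 (1.21 times, adjusted p = 0.00165) and Psme4 (1.23 times, 0.00634) were higher. Psme1 and Psme2, the interferon-inducible pair, overlapped between groups at 10.9 ± 0.603 and 11.4 ± 0.398 FPKM, and at 15.7 ± 0.733 and 17.1 ± 1.17 FPKM.

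Tap1, Tap2, Psmb8 and Psmb9 lie side by side in the class II region of chromosome 17. The starts of Tap1 and Psmb9 in the RefSeq windows point away from each other and are 226 bases apart. In GENCODE M21 a longer Psmb9 transcript reaches past the Tap1 start, so the genes overlap on opposite strands. The 275 bases that both windows share held 1 CCAAT and none of the other 4 motifs. The Psmb9 to Tap1 ratio in FPKM was 0.0694 ± 0.0104 in controls and 0.128 ± 0.0390 in siEzh2, with no overlap (exact two-sided permutation p = 0.1, n = 3). Besides these 4 genes the tables listed 12 genes within 100 kb, of which 5 were tested, 1 was higher, 1 was lower and 3 were not called. Brd2, a bromodomain protein that reads acetylated histones, was the one called higher, at 28.5 ± 1.26 FPKM in controls and 41.0 ± 0.368 FPKM in siEzh2 (limma adjusted p = 0.000282). The class II genes H2-DMa, which overlaps Brd2 on the opposite strand, and H2-DMb1, which sits between Brd2 and Psmb9, did not rise. Brd2 exons overlap 10.4% of the H2-DMa exon bases. H2-DMa was not called, and H2-DMb1 fell from 5.78 ± 0.495 to 4.32 ± 0.474 FPKM (log2 fold change -0.35, limma adjusted p = 0.0153).

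**Figure D4:**
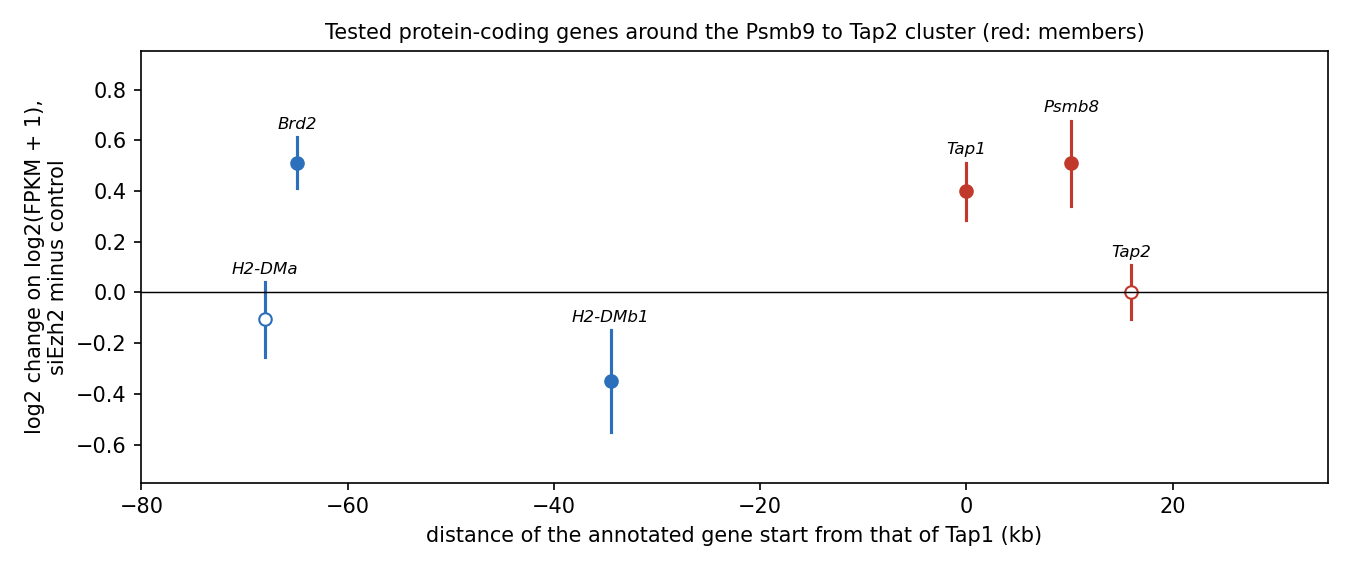
Log2 fold change (siEzh2 minus control, on log2(FPKM + 1)) with 95% intervals of the tested protein-coding genes around Psmb9, Tap1, Psmb8 and Tap2, against distance from the Tap1 start in kilobases. Brd2, Tap1 and Psmb8 lie above 0 and are called, H2-DMb1 lies below 0 and is called, and Tap2, next to Psmb8, lies at 0.

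Among 17 tested regulators of class I genes, 8 were higher, 2 were lower and 7 were not called, with a median log2 fold change of 0.10. The interferon-responsive factors led the rises. Irf7 was 2.44, 2.34 and 2.62 FPKM in the controls and 7.51, 7.72 and 7.06 FPKM in siEzh2, 3.01 times higher (log2 fold change 1.28, limma adjusted p = 4.02e-05). Stat2 and Irf9, which bind ISREs in one complex, were 1.47 times (adjusted p = 0.000118) and 1.40 times higher (0.000667). Irf1, a direct activator of class I genes, was 2.16 ± 0.132 FPKM in controls and 3.32 ± 0.236 FPKM in siEzh2 (1.54 times, limma adjusted p = 0.00124). Irf3, an activator of interferon genes, fell from 9.81 ± 0.701 to 6.82 ± 0.623 FPKM (limma adjusted p = 0.0035).

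The factors that bind the X and Y boxes of MHC promoters, where Nlrc5 docks, did not share one direction. Rfx5, Rfxap and Rfxank were not called, and neither were Nfya or Creb1, while Atf1, which binds the same kind of site as Creb1, was 1.17 times higher (limma adjusted p = 0.00542). Nfyb was 1.28 times higher and Nfyc, another subunit of the same CCAAT-binding trimer, was 1.42 times lower (limma adjusted p = 0.00602 and 0.0013). The NF-kappaB subunits Rela and Nfkb1 were not called. Ciita, the class II counterpart of Nlrc5, had a mean of 0.0208 FPKM in controls and 0.0168 FPKM in siEzh2, and was not tested.

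Of 12 listed interferon and receptor genes, 6 had values. Ifnb1, Ifng, Ifna1, Ifna5, Ifnl2 and Ifnl3 had none, so their levels are unknown here. Ifna2 and Ifna4 were at 0 in all controls and in siEzh2 samples 2 and 3. In siEzh2 sample 1 they stood at 0.0602 and 0.111 FPKM, which is 1 read each. Of the receptor chains, Ifnar1 was 9.27 ± 0.350 FPKM in controls and 11.5 ± 0.292 FPKM in siEzh2 (limma adjusted p = 0.00209) and Ifngr2 was 1.18 times higher (0.0129). Ifngr1 fell from 20.4 ± 1.02 to 17.3 ± 0.734 FPKM (0.0134), and Ifnar2 was not called, except as lower in some alternatives (limma-voom adjusted p = 0.00147).

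Class II genes and markers of other cells are given because leukocytes and endothelial cells carry many class I molecules. H2-Aa and Cd74, the class II alpha chain and invariant chain, were below 0.1 FPKM in every sample. The class II beta chain H2-Ab1 was 0.795 ± 0.422 FPKM in controls and 0.550 ± 0.0499 FPKM in siEzh2. H2-Eb1, another beta chain, was 0.454 ± 0.189 and 0.646 ± 0.0790 FPKM. Both overlapped between groups and were below the filter. The 8 listed class II genes summed to 9.11 to 9.92 FPKM in controls and 7.24 to 8.03 FPKM in siEzh2. Of 11 listed macrophage and leukocyte markers 4 were tested, of which Lyz2 (2.35 times) and Csf1r (3.24 times) were lower, Csf1r having passed the filter through the controls only, and Cd68 and Cd14 were higher. Neither of these rises was called when control sample 2, control sample 3 or siEzh2 sample 3 was left out (adjusted p 0.0836 to 0.108). These 11 summed to 17.5 to 20.9 FPKM in controls and 14.6 to 15.5 FPKM in siEzh2, with Fcgr1 at 0 in all controls. The 7 endothelial markers summed to 3.91 to 4.18 FPKM in controls and 4.61 to 5.28 FPKM in siEzh2, with Kdr higher and Emcn lower. Below the filter and without overlap, Tek was 0.332 ± 0.0815 FPKM in controls and 0.857 ± 0.0897 FPKM in siEzh2, Vwf 0.417 ± 0.0524 and 0.932 ± 0.109 FPKM, and Pecam1 0.170 ± 0.0640 and 0.0789 ± 0.0134 FPKM. With no filter, or with the filter on reads, 3 endothelial markers were higher in place of 1. The 6 fibroblast markers summed to 685 to 730 FPKM in controls and 568 to 616 FPKM in siEzh2, with Pdgfra higher and Lum and Col1a1 lower. Their part in the changes of the class I genes was not tested.

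In FPKM the order of the levels was the same in both groups: B2m, H2-D1, H2-K1, Tapbp, Psmb10, Tap2, Tap1, Nlrc5, Psmb8 and Psmb9. Values of neighbours did not overlap in either group. By size of change the order was another. By ratio of means Nlrc5 (3.24 times) led, before Psmb9 (2.61), Psmb8 (2.39) and H2-K1 (1.78). The percentiles that follow are on the main scale, which shrinks changes of low genes. Psmb9 was not tested and has none, and Nlrc5 and Psmb8 passed the filter only through siEzh2. Among all tested log2 fold changes Nlrc5 stood at percentile 99.2, H2-K1 at 98.3, Psmb8 and Tapbp at 95.1, Tap1 at 91.8, Psmb10 at 91.6, B2m at 87.1, H2-D1 at 72.8 and Tap2 at 48.3. The siEzh2 samples took turns as the highest: sample 2 in 4 of the 10 genes, and samples 1 and 3 in 3 each, so no single siEzh2 sample led the set.

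The median profile of the 9 tested genes was flat within groups, at 0.42 to 0.43 in the siEzh2 samples on the log2 scale. Genes outside the set with the most similar profiles over the 6 samples, by root-mean-square distance in log2(FPKM + 1), were Lamc1 (0.0111), Fn1 (0.0118), Qsox1 (0.0128) and Mcc (0.0141). Their log2 fold changes ran from 0.42 to 0.44. The measure favours genes with little spread between replicates and a change of the same size.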

How the data were processed

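The authors deposited 1 table of FPKM values per sample, per the file headers. Libraries were made with a TruSeq Stranded mRNA kit, per the labels' protocols. Per the submitters' processing notes, the tools were Trimmomatic, HISAT2, Cufflinks and HTSeq on mm10; the sources used here give no versions, order or strand use. Near-identical genes could share reads.

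FPKM multiplied by GENCODE M21 exon length gave whole reads for 98.4% to 98.5% of values under 1000 reads (within 0.02 of a read). At these depths 3 reads equal 0.160 to 0.187 CPM (counting error only). Genes whose mean reached 1 FPKM in either group were fitted on log2(FPKM + 1), a scale that understates the change of low genes, in R 4.3.3 by limma 3.58.1 without trend or robust settings. Adjusted p-values are Benjamini-Hochberg over all 11869 tested genes. SD and ratios are of FPKM. Ratios and sums were compared with exact two-sided permutation tests (3 against 3, smallest p 0.1). Sequence windows were from RefSeq (GRCm38.p6). Python 3.11.15 did the rest.

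The genes and all lists were chosen with earlier results of these data known. Named genes were the 10 genes, Ezh2, genes of the lists beside their counts, the 5 nearest profiles and the neighbours of Psmb9 to Tap2. Of these, 2 genes are counted but not reported by name here. On simulated data for this comparison (11669 genes tested, 50 changed per size), the limma fit called 30% of genes changed 1.25 times, 82% at 1.5 times, 88% at 2 times and 96% at 3 times, with 10 false among 158 calls. No sample was a copy of another (chi-square per degree of freedom of recovered reads 2.14 to 3.29 within groups). Alternatives were other normalizations, filters, pseudocount, variance model, a replicate block, limma-voom on recovered reads (98.4% to 98.5% whole) and leaving out each sample.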

Additional observations from a re-analysis of the deposited data

How the results depend on the processing

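Of 124 values of the 10 genes under the alternatives, 113 kept their side of the threshold and 9 lost the call (all of H2-D1). A further 2 gained a call (Psmb9), and 0 were called in the other direction. Tap2, called in none of them, changed sign between alternatives (log2 fold change -0.027 to 0.035). The count of the 10 genes that were higher ran from 5 to 9. It was 5 with a filter of 5 FPKM, which leaves out Tap1, Psmb8 and Nlrc5, and the count over the related lists was then 18 in place of 28. With 1 sample left out it was 6 to 8 with 0 lower, while all genes gave 2309 to 2516 higher and 2156 to 2345 lower, and the related lists 21 to 24 higher and 19 to 20 lower. The log2 change of the summed heavy chains was 0.37 for H2-K1 and H2-D1 alone in place of 0.24, and 0.22 to 0.26 with 1 sample left out. The log2 changes of the ratios were then 1.16 to 1.37 for Psmb8 to Psmb5, 0.97 to 1.51 for Psmb9 to Psmb6 and 0.35 to 0.54 for Psmb10 to Psmb7. Limma-voom on recovered reads called 2885 genes higher and 3310 lower, against 2866 and 2695.

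The main fit did not pair the samples by replicate number. Same-numbered samples correlated weakly, at 0.0243, 0.0695 and 0.0405 in their deviations, and other pairs at -0.0623 to 0.0218. Each sample correlated best with its own number, a hint of pairing from the data and not from the design. With the replicate number as a block, 7 of the 10 genes were higher (H2-D1 was not called), as were 22 genes of the related lists and 2564 of all genes, with 2385 lower. Depth limits Psmb9 and Psmb8 most, on 46 and 83 reads over the controls.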
